A study of Mus musculus with 2 samples.

Results

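Of the 14157 CHOP peaks called in stressed mouse liver, 388 (2.74%, 95% Wilson interval 2.48 to 3.02%) had their summit in an exon of a protein-coding gene and more than 1 kb from every protein-coding start site. They were selected by position alone, from the summit base of each peak and the GENCODE M21 gene models on mm10. In all, 3704 summits were exonic, and the remaining 3316 lay within 1 kb of a start site. Coding exons held 233 of the 388 summits (60.1%, 55.1 to 64.8%), 3′ UTRs held 139 and 5′ UTRs held 16. A base that is coding in any transcript was counted as coding.

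The chromatin came from the livers of wild-type (WT) mice given tunicamycin intraperitoneally at 1 mg/kg body weight for 8 h. The CHOP immunoprecipitate was 1 library made from a pool of 3 such mice, and 1 input library from tunicamycin-treated WT liver served as its background. Every library carried the same genotype and treatment, and no untreated or CHOP-deficient liver and no replicate was analysed here. All values therefore describe 1 pooled library, peaks are not replicates of one another, and no difference between groups of peaks was tested.

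CHOP, the product of Ddit3, is a basic leucine zipper protein of the C/EBP family that is made when misfolded protein accumulates in the endoplasmic reticulum (ER). Tunicamycin causes such stress by blocking N-linked glycosylation. CHOP binds DNA as a dimer with other C/EBP proteins or with ATF4, and the ATF4 dimers recognise a composite element that joins a C/EBP and an ATF recognition sequence. A binding site inside an exon shares its bases with the message, so the same letters lie within codons or untranslated sequence.

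Cebpb, the exonic peak of highest fold, and 21 other peaks carried such an element, and examples are shown first because they place a C/EBP-ATF composite inside or beside a message. The composite was searched as TGATGCAA on both strands within 50 bp of the summit. Each line gives 28 bases of mm10 (GRCm38.p6) on the strand of the gene, 5′ to 3′, with the composite in capitals, whichever strand it reads on. The first 5 are among the members of the highest fold with the element, and the last 4 were chosen after their values were seen.
Cebpb, 3′ UTR, chr2:167690099-167690126, plus strand: tttcgggactTGATGCAAtccggatcaa
Xpo7, 3′ UTR, chr14:70659127-70659154, minus strand: ccgagtttatTTGCATCAggtccttaca
Ank, coding exon, chr15:27564894-27564921, plus strand: caaaacagggTGATGCAAccataagaaa
Xirp1, coding exon, chr9:120017100-120017127, minus strand: acggggctggTGATGCAAgagacaggac
Gadd45a, 3′ UTR, chr6:67035556-67035583, minus strand: ctccccacgcTGATGCAAggattacaga
Baiap2, coding exon, chr11:119996598-119996625, plus strand: gctgtccagcTGATGCAAcagatggcca
Hectd4, coding exon, chr5:121331838-121331865, plus strand: ggcaccagtaTTGCATCAgacccaggca
Inhbe, 5′ UTR, chr10:127352426-127352453, minus strand: tgctgtaagaTTGCATCAccacgagccc
Inhbe, 5′ UTR, chr10:127352012-127352039, minus strand: atcctctttcTTGCATCAtgcatgtcca

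A second set of exonic summits carried a C/EBP element without the ATF part, searched as TTGCNNAA on both strands. This set overlaps the first, since Xpo7 carried both elements. The palindromic form TTGCGCAA, a special case of that pattern, was found at 4 members, all in coding exons. Shown here are 3 of those 4 and the strongest coding and 3′ UTR members with the general element, on the strand of the gene with the element in capitals. Papss2 and Espnl were chosen after their values were seen.
Ttll8, coding exon, chr15:88919627-88919654, minus strand: aaaagttactTTGCGCAAtgccaagctc
Papss2, coding exon, chr19:32663065-32663092, plus strand: tgcattccagTTGCGCAAtcctgtccac
Espnl, coding exon, chr1:91345109-91345136, plus strand: cctggccagcTTGCGCAAggagcgcatc
Coasy, coding exon, chr11:101083603-101083630, plus strand: ttttgaccgcTTGCACAAtgcccacaaa
Psat1, 3′ UTR, chr19:15904811-15904838, minus strand: ttgcattcgaTTGCACAAggggaagaca
Cav1, 3′ UTR, chr6:17340582-17340609, plus strand: atgaccccttTTATGCAAagcccttgca

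The composite element was found at 22 of the 388 members (5.67%, Wilson interval 3.77 to 8.44%), against 2.99% of all peaks. In windows of the same size centred 500 bp to the left and to the right of the same summits it was found 0 and 2 times. The general C/EBP element was also found at 22 members (5.67%), against 4.44% of all peaks, a share inside the members' interval, and in 17 and 8 of the side windows. At least 1 of these elements, termed C/EBP-type below, lay at 42 members (10.8%, 8.11 to 14.3%), against 7.25% of all peaks. The C/EBP-type share was 11.3% in intron peaks and 10.2% in intergenic peaks, both inside that interval, and 2.92% in promoter peaks. The palindrome's 4 members stood beside 0.134% of all peaks, which was 19 peaks, and no side window of a member held it. The composite was found at 5.16% of intron peaks and 4.22% of intergenic peaks, both inside the interval of the exonic peaks, and at 0.84% of promoter peaks, which was below it.

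By class, 12 of 139 summits in 3′ UTRs (8.63%, 5.01 to 14.5%), 8 of 233 in coding exons (3.43%, 1.75 to 6.63%) and 2 of 16 in 5′ UTRs had a composite. Windows at evenly spaced positions of the same annotation outside promoters held it in 0.308% of 31481 positions in 3′ UTRs and 0.255% of 29393 positions in coding exons. The summits of both classes therefore held the element more often than evenly spaced exonic positions did. For the C/EBP-type elements together, the counts were 23 of 139 in 3′ UTRs (16.5%) and 17 of 233 in coding exons (7.30%), against 4.95% and 4.4% of the positions. The general C/EBP element alone was at 9 of 233 coding summits (3.86%, 2.05 to 7.18%), against 11 and 6 of their side windows. Its coding interval includes the 4.44% of all peaks, so no excess of this element was seen at coding summits. In 3′ UTRs it was at 13 of 139 (9.35%), against 6 and 2 of the side windows.

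Composite elements of the exonic peaks lay close to the summit. Within 250 bp on either side there were 31 of them, of which 15 lay up to 25 bp, 7 at 26 to 50 bp, 7 at 51 to 100 bp and 2 farther away. Those within 50 bp lay a median of 21 bp from the summit, against 18 bp in intron peaks.

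**Figure D1:**
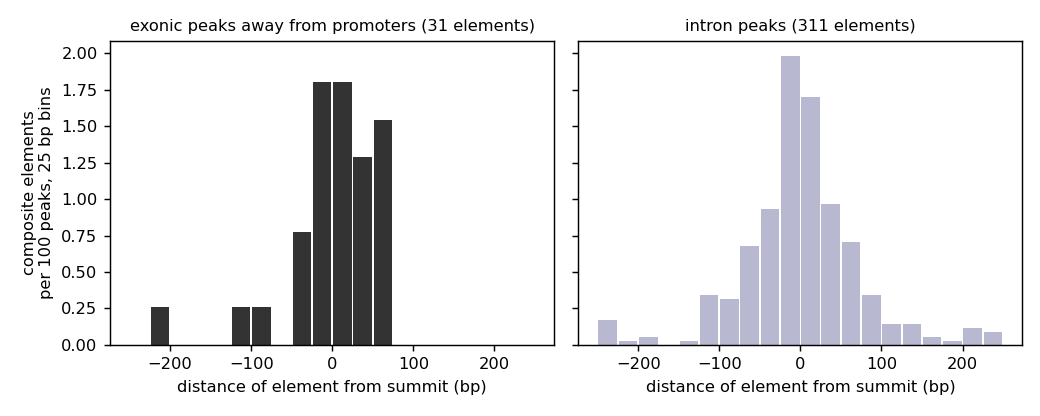
Composite elements per 100 peaks in bins of 25 bp, by distance from the summit (bp, negative to the left on the reference), in the 388 exonic peaks (left, 31 elements) and in 3529 intron peaks (right, 311 elements). Both distributions centre on the summit, and 2 of the 31 elements of exonic peaks lay more than 100 bp away.

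Members with a composite had a median fold enrichment of 9.0, against 6.13 for members without one. Fold is the authors' ratio of reads at the summit to the local background, with 1 added to each. At low background it is therefore well below the plain ratio of the reads. Intervals given with it are exact 95% Poisson intervals on the summit reads, which cover counting error only. Of the 8 composites at coding summits, 4 read on the strand of the gene and 4 on the opposite strand. In 6 of the 8 the element itself lay inside coding sequence, and its first base on the gene strand was at codon position 2 in 4 genes, at position 3 in 2 and at position 1 in 0. At Harbi1 and Itih2, named for this after their values were seen, the element lay just outside the exon that held the summit.

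The composite peaks named above covered genes of several functions. Cebpb, which encodes C/EBPβ, a dimer partner of CHOP, had the highest fold of all members at 76.3 (65.1 to 89.0) on 161 reads. Its peak was 1763 bp wide, ran over the start site of the gene, and peaked 1172 bp from that start within the 3′ UTR, 265 bp from the start of another transcript. Xpo7, a nuclear transport receptor, had a fold of 18.7 (12.3 to 27.5) on 24 reads, with the composite and a C/EBP element in the 3′ UTR of the last of its 28 exons, 71 bp from the start of another transcript.

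Ank, a membrane protein that controls pyrophosphate and ATP release, had a coding peak with a fold of 15.7 (9.91 to 23.9), in a stretch where the gene model of Otulin also overlaps. Xirp1, an actin-binding protein of striated muscle, had a fold of 12.7 on 16 reads in its coding exon. Both were single-copy places in the genome and neither had a repeat-masked summit.

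Gadd45a, a growth-arrest gene induced by stress, had a 3′ UTR peak with a fold of 11.4 (6.68 to 18.3) on 15 reads and also a promoter peak. Baiap2, an adaptor of insulin receptor signalling, and Hectd4, a member of the HECT ubiquitin ligase family, each had a fold of 11.2 on 14 reads in coding exons. Eif4g2, a translation initiation factor that acts without the cap-binding protein and was named after its value was seen, had a coding composite at a fold of 9.0 on 11 reads. Inhbe, which encodes the activin E subunit secreted by hepatocytes, had composites at both of its 5′ UTR peaks, with folds of 6.0 (2.86 to 11.6) on 7 reads and 5.23 (2.39 to 10.5) on 6 reads. Both Inhbe peaks rested on few reads, and their intervals overlap over most of their length.

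Among members with the general C/EBP element, Coasy led. It encodes the enzyme of the last steps of coenzyme A synthesis, and its coding peak had a fold of 31.5 (22.8 to 42.5) on 41 reads, with the summit 1026 bp from the nearest protein-coding start and 244 bp from the start of another transcript. Psat1, an aminotransferase of serine synthesis, had a 3′ UTR peak with a fold of 25.8 (18.2 to 35.6) on 35 reads and a promoter peak with a lower fold of 7.5. Cav1, caveolin-1 of the plasma membrane, had a 3′ UTR peak with a fold of 20.2 (13.5 to 29.3) on 26 reads.

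The palindrome members spanned a wide range of fold. Ttll8, a tubulin-modifying enzyme, had a fold of 19.2 (12.8 to 27.8) on 26 reads in the ninth of its 12 exons, 225 bp from the start of another transcript. Papss2, which makes the sulfate donor PAPS, had a fold of 7.5 on 9 reads, and Espnl, an espin-like protein, 4.71 on 9 reads. In Ttll8, Papss2 and Espnl the palindrome lay within 10 bp of the summit.

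Over all 388 members the median fold was 6.28, with a range of 3.26 to 76.3. A fold of at least 10 was reached by 74 members (19.1%, 15.5 to 23.3%), against 22.5% of all peaks. The median was 6.0 in coding exons, 6.78 in 5′ UTRs and 6.75 in 3′ UTRs, and 30 (12.9%), 4 and 40 (28.8%) peaks reached 10. Promoter peaks had a median of 6.65 with 20.7% at 10 or more, and intron peaks 6.75 with 26.1%. Coding exons thus had the lowest share of peaks at 10 or more of these classes. Their median local background was 0.806 reads, against 0.333 in intron peaks and 1.12 in promoter peaks. The value of 0.333 was also the median of 3′ UTR peaks and recurred unchanged at many members. At those members fold follows from the summit reads alone. The interval of the 3′ UTR share, 21.9 to 36.8%, included the intron share.

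The summits rested on a median of 10 reads (4 to 166), and 212 members (54.6%) had 10 or fewer, against 45.8% of all peaks. Peak width had a median of 238 bp (172 to 1894), against 285 bp for all peaks, and 87 members (22.4%) had the smallest width of 172 bp. Counting error is wide at such depth, as the intervals of Inhbe against that of Cebpb show.

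Per megabase of annotated sequence outside promoters, coding exons held 7.93 peaks, 5′ UTRs 21.0 and 3′ UTRs 4.42, against 3.87 in introns and 2.33 between genes. The 5′ UTR value rests on 16 peaks in 0.762 Mb. Distances to the nearest protein-coding start had a median of 5604 bp, with 92 members at 1 to 2 kb, 97 at 2 to 5 kb, 118 at 5 to 20 kb and 81 beyond 20 kb. The median fold was 6.72, 6.0, 6.28 and 6.0 in these 4 ranges, with no steady order from near to far. The farthest, named after its value was seen, was a coding peak of Pkhd1, the fibrocystin gene, 559594 bp from a protein-coding start but 7078 bp from the start of another transcript, with a fold of 5.66.

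**Figure D2:**
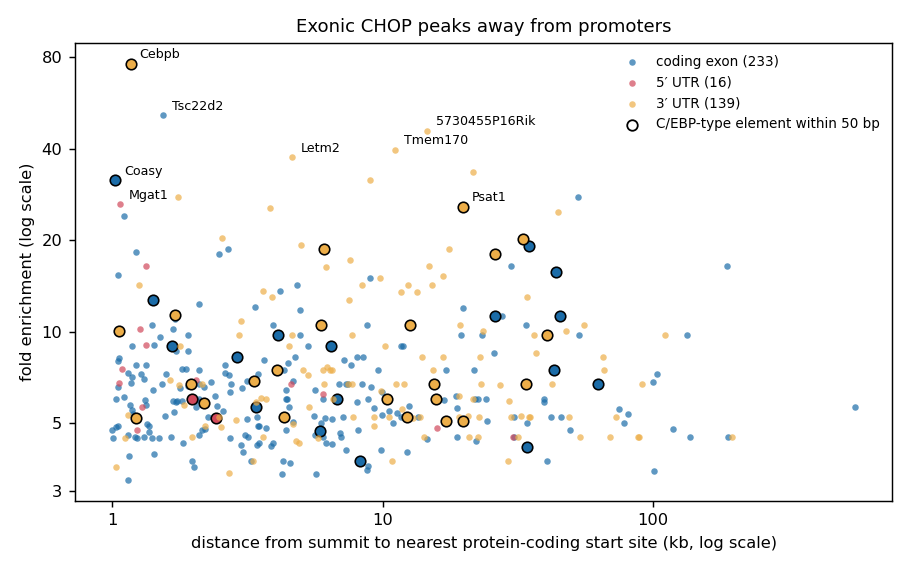
Fold enrichment (log scale) against distance from the summit to the nearest protein-coding start site (kb, log scale) for the 388 exonic peaks, coloured by class, with black rims for the 42 peaks with a C/EBP-type element. Cebpb at 76.3 stands highest, and rimmed peaks run from below 5 to 76.3. A fold of at least 10 was reached by 19 of 92 peaks at 1 to 2 kb and 17 of 81 beyond 20 kb. The farthest peak had a fold of 5.66.

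The limit of 1 kb cut through a continuous range of distances. Just outside it were peaks of Rbm15, an RNA-binding protein, at 1002 bp with a fold of 4.74, Gas1, a membrane receptor of hedgehog signalling, at 1006 bp with a fold of 4.46, and Coasy at 1026 bp with 31.5. Just inside were Fosl2, an AP-1 protein, at 1000 bp with a fold of 5.53, Khdc3 at 986 bp with 5.28, and Socs3, an inhibitor of cytokine signalling, at 965 bp with 5.65. The intervals of 22 members overlapped the zone within 1 kb of a protein-coding start, and those of Cebpb and of Hnrnpa0, which was named after its value was seen, contained a start. With starts of all transcripts of all genes, noncoding ones included, 70 members (18%, 14.5 to 22.2%) lay within 1 kb, against 9.25% of all peaks away from protein-coding starts.

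The 21 peaks of highest fold, 20 and a tie at 18.7, comprised 14 in 3′ UTRs, 6 in coding exons and 1 in a 5′ UTR. Among them 8 had a summit base soft-masked as a repeat in the reference sequence, and all 8 were 290 to 360 bp wide and in 3′ UTRs. The other 13 were unmasked, and 6 of those 13 had a C/EBP-type element. No peak among the 21 had a second near-identical place in the genome.

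The strongest coding peak was in Tsc22d2, a leucine zipper family member, with a fold of 51.6 (42.6 to 62.0) on 112 reads. It was 1396 bp wide, lay in the large first exon, and had no C/EBP-type element within 50 bp. Its summit lay 1542 bp from a protein-coding start and 384 bp from the start of another transcript. Nedd4, a HECT ubiquitin ligase, had a fold of 27.7 (19.7 to 38.1) in the eleventh of 29 exons. Ankrd11, a chromatin co-regulator, had 24.0 (16.5 to 33.7) at 1108 bp from a start, in a stretch that the gene model Gm20388 also covers. Usp48, a deubiquitinating enzyme, had 18.7 on 24 reads. Of these coding genes Tsc22d2, Nedd4, Ankrd11 and Usp48 also had a promoter peak, whereas Coasy and Ttll8 had no summit within 1 kb of their protein-coding starts. For Coasy this rests on the summit rule, since its own peak overlapped that zone by 293 bp and its midpoint lay 958 bp from the protein-coding start.

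In the 5′ UTRs the strongest peak was in Mgat1, the Golgi enzyme that opens the synthesis of hybrid and complex N-glycans, with a fold of 26.2 (18.4 to 36.4) on 34 reads. Its summit lay in the second of 4 exons, 1072 bp from a protein-coding start and 87 bp from the start of another transcript. Tmbim6, the ER membrane protein also called BAX inhibitor 1, followed with 16.5 (10.5 to 24.8) on 21 reads. Then came 1810010D01Rik with 11.6, Zkscan7, a zinc finger protein, with 10.2, and Brd2, a bromodomain protein, with 9.07. Mgat1, Tmbim6 and Brd2 had promoter peaks as well.

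Unmasked 3′ UTR peaks of high fold, beside those shown above, were in Gm867 with a fold of 27.8 (19.9 to 37.9) and in Bnip2, a BCL2-interacting protein, with 25.5 (17.8 to 35.5). Neither had a C/EBP-type element within 50 bp. The masked peaks were in 5730455P16Rik with 45.9 (35.3 to 58.6) on 62 reads, Tmem170 with 39.7 on 52 reads, and Letm2, a protein related to an ion exchanger of the mitochondrial inner membrane, with 37.5 on 52 reads. Ssr1, a subunit of the translocon-associated complex of the ER, had 33.6 (24.6 to 44.8), and Chrnb1, a subunit of the muscle acetylcholine receptor, had 31.5. Dlc1, a GTPase-activating protein, had 24.7, Rab40b, a small GTPase, 20.4, and Parp3, an ADP-ribosyltransferase of DNA repair, 19.3. None of these 8 had a C/EBP-type element.

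Repeat masking separated the 3′ UTR peaks into groups of unlike shape. The summit base was masked in 58 members (14.9%), against 26.4% of all peaks, and 40 of the 58 were in 3′ UTRs. Of those 40, 18 were 290 to 360 bp wide and had a median fold of 16.8, with 14 of 18 at 10 or more and 0 of 18 with a C/EBP-type element. The other 22 had a median fold of 5.25, with 2 at 10 or more. Among the 99 unmasked 3′ UTR peaks the median was 6.75, 24 (24.2%) reached 10, and 22 (22.2%, 15.2 to 31.4%) had a C/EBP-type element. Of 2037 unmasked intron peaks 21.2% reached 10 and 16.5% had a C/EBP-type element, a share inside that interval. Unmasked 3′ UTR peaks of that width had a median fold of 9.75 (15 peaks), and those of other widths 6.0 (84 peaks).

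Peaks of the same width outside exons also had a higher fold, whether masked or not. The median fold was 12.5 in 601 masked intron peaks of 290 to 360 bp and 12.8 in 584 masked intergenic ones. Masked peaks of other widths had 6.02 and 6.0. Unmasked peaks of that width had a median of 9.16 in introns (329 peaks) and 8.51 between genes (339 peaks). Those of other widths had 6.19 and 6.09. In coding exons 15 members were masked, of which 6 were of that width, with a median fold of 7.78. The width range was chosen after the values were seen. The part of repeats in the fold of these peaks was not tested.

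**Figure D3:**
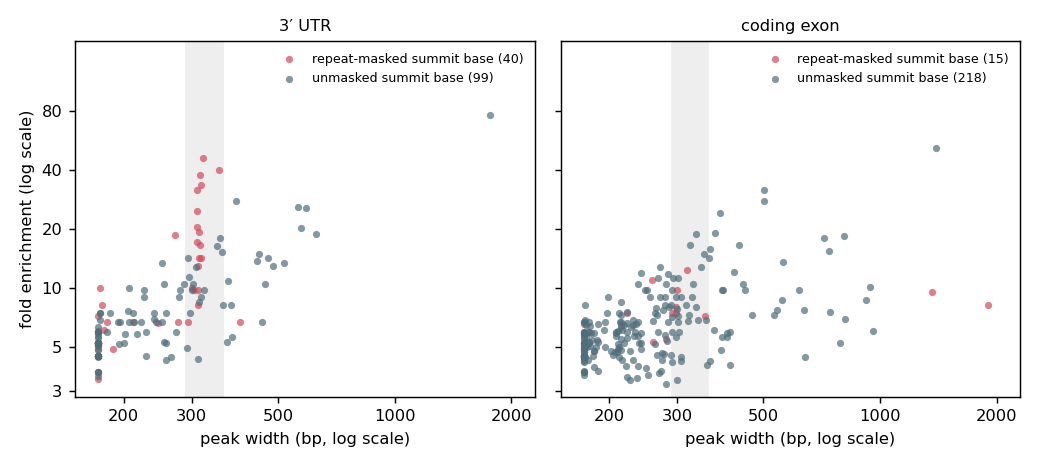
Fold enrichment (log scale) against peak width (bp, log scale) for exonic peaks in 3′ UTRs (left) and coding exons (right), coloured by whether the summit base was repeat-masked, with 290 to 360 bp shaded. In 3′ UTRs 18 masked peaks stand in the shaded range with a median fold of 16.8, and in coding exons 6 do with 7.78.

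A second near-identical place was found for the window of 50 bp on each side of the summit in 12 members (3.09%), against 4.03% of all peaks. The most heavily covered was Lars2, the mitochondrial leucyl-tRNA synthetase, whose 3′ UTR summit had 166 reads, the most of any member, a fold of 15.2 (13 to 17.7) and 3 places. Gm11168 had 50 places and a fold of 11, and Usp17lb, of a multicopy deubiquitinase family, 4 places and 9.0. Reads of these members, named after their values were seen, may belong to another copy, and their assignment is uncertain.

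Base composition divided the coding peaks. A summit was called CpG-rich where the 150 bp on each side of it had a CpG observed/expected ratio of at least 0.6 and a GC share of at least 50%, a split chosen after the values were seen. This held for 159 members (41.0%), against 45.2% of all peaks. It held for 136 of 233 coding peaks (58.4%), 9 of 16 in 5′ UTRs and 14 of 139 in 3′ UTRs (10.1%), against 4.62% of coding positions, 3.48% of 5′ UTR positions and 0.60% of 3′ UTR positions outside promoters. Promoter peaks were CpG-rich in 89.8% and intron peaks in 5.07%.

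The 136 CpG-rich coding peaks had a low fold and seldom a C/EBP-type element. Their median fold was 5.51, and 7 reached 10, among them Tsc22d2, Dbp and, named after their values were seen, Cited2, Atg9b, Vgf and Lrrc24. Their summits held a median of 11 reads over a median local background of 1.19, against 9 reads over 0.333 at CpG-poor coding peaks. Fold is formed from both of these values, and the part of the background in the lower fold was not tested. A composite was found at 0 of 136 (Wilson interval up to 2.75%), against 0.074% of CpG-rich coding positions. A C/EBP-type element was found at 1 (0.735%, 0.13 to 4.05%), against 2.14% of those positions. Both intervals include the share of the positions. The CpG-rich coding peaks lay a median of 2718 bp from a start, and the coding block around the summit had a median length of 739 bp. Blocks of 500 bp or more held 99 of them (72.8%), against 58.4% of CpG-rich coding positions and 24.9% of all coding positions.

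The 97 CpG-poor coding peaks had a median fold of 6.75 with 23 (23.7%) at 10 or more. They held all 8 composites of coding exons (8.25%, 4.24 to 15.4%) and 16 C/EBP-type elements. They lay a median of 7450 bp from a start in blocks with a median of 168 bp, and a median of 59.3% of the peak was exonic, so that much of such a peak lay outside exons. Among CpG-poor intron peaks the composite share was 5.40% and the C/EBP-type share 11.8%. The CpG-poor coding peaks held C/EBP-type elements at 16.5% (10.4 to 25.1%), an interval that includes the intron share.

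**Figure D4:**
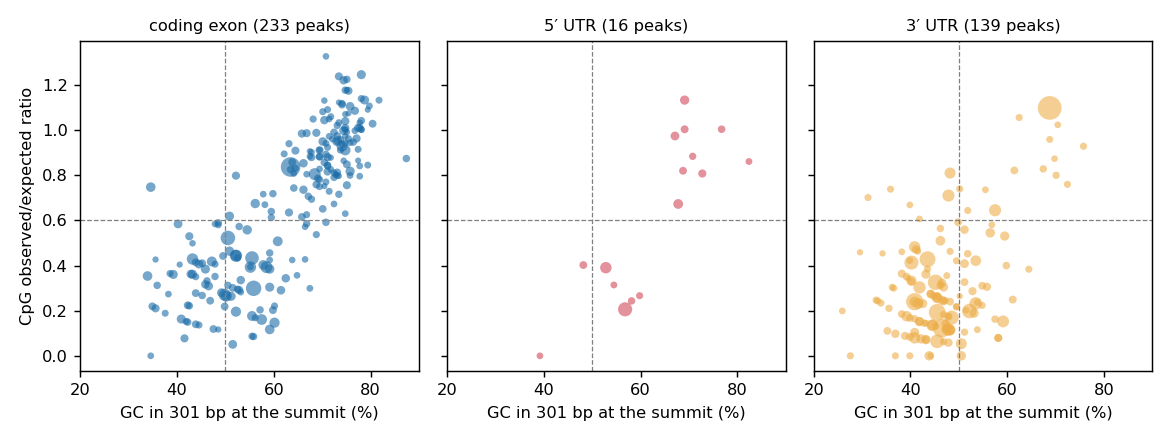
CpG observed/expected ratio against GC share (%) in the 150 bp on each side of each exonic summit, by class (coding exon 233, 5′ UTR 16, 3′ UTR 139), with point area growing with fold and dashed lines at a ratio of 0.6 and a GC share of 50%. Coding peaks form a CpG-rich group of 136 and a CpG-poor group of 97, and 125 of the 139 peaks in 3′ UTRs are outside the CpG-rich quadrant.

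Other sequence patterns were set beside the same division. The E-box and the GC box below each contain CG, so the division itself bears on their counts. The E-box CACGTG was found at 18 members (4.64%, 2.95 to 7.21%), against 3.37% of all peaks, and in 4 and 6 of the side windows. The interval of the members includes the share of all peaks. Of the 18, 16 were in coding exons and 12 of those were CpG-rich. The 12 made up 8.82% (5.12 to 14.8%) of the CpG-rich coding peaks, against 3.24% of CpG-rich coding positions. The other 4 made up 4.12% (1.62 to 10.1%) of the CpG-poor coding peaks, against 1.60% of CpG-poor coding positions. The members of highest fold with an E-box, named after their values were seen, were Kdm4a, a histone demethylase, with 15.0, Atg9b, a lipid-handling protein of autophagy, with 13.6, and Vgf, a secreted neuropeptide precursor, with 12.3. The GC box GGGCGG, bound by Sp1-type factors, was found at 53 members (13.7%), against 23.4% of all peaks and 45.4% of promoter peaks. In CpG-rich coding peaks it was found at 37 of 136 (27.2%), against 12.0% of CpG-rich coding positions. In CpG-poor coding peaks it was found at 4 of 97 (4.12%, 1.62 to 10.1%), against 2.25% of CpG-poor coding positions.

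The AP-1 element TGANTCA was found at 13 members (3.35%), against 2.68% of all peaks, all of them CpG-poor. AGGTCA, part of nuclear receptor sites, was found at 27 (6.96%), against 5.88% of all peaks, and CCAAT at 33 (8.51%), against 9.17%. The CRE palindrome TGACGTCA was found at 1 member, Efhd2, named after its value was seen, against 0.516% of all peaks. The ETS pattern CCGGAAG was found at 4 members against 2.29% of all peaks, the NRF1 pattern GCGCATGCG at 2 against 0.304%, and the FOXA pattern TGTTTAC at 3 against 1.12%. The HNF1 pattern GTTAATNAT was found at 1 against 0.212%, the YY1 pattern AAGATGGCG at 0 against 0.671% and the HNF4 pattern CAAAGTCCA at 0 against 0.184%. For AP-1, AGGTCA and CCAAT the interval of the members included the share of all peaks, and the counts of the rarer patterns are too small to rank.

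**Figure D5:**
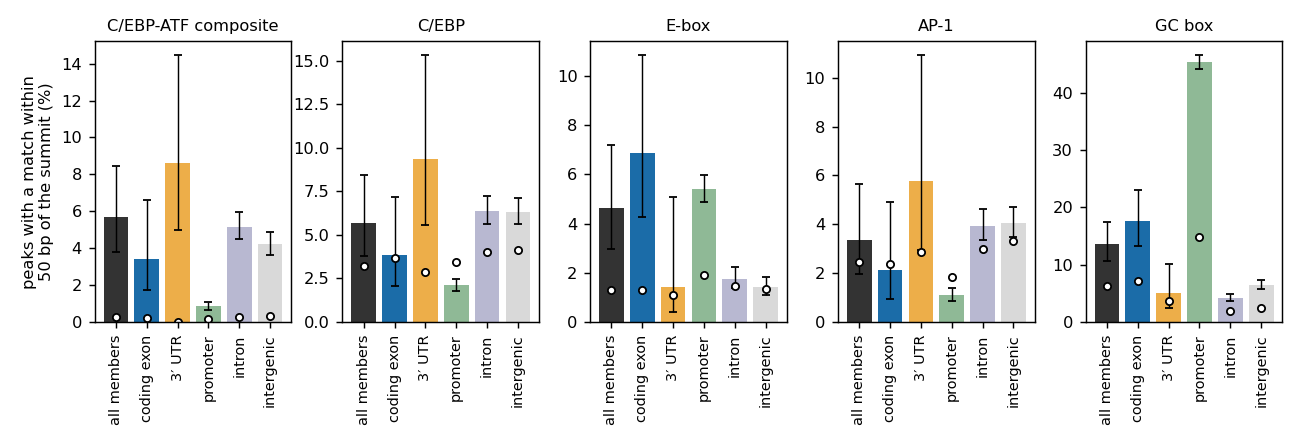
Share of peaks (%) with a match within 50 bp of the summit for 5 patterns, in the 388 exonic peaks, their coding and 3′ UTR parts, and promoter, intron and intergenic peaks, with 95% Wilson intervals and a separate linear scale for each pattern. Open circles are the mean share in the 2 side windows. The composite stands at 5.67% in exonic peaks and 0.84% in promoter peaks, and the GC box at 13.7% and 45.4%.

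By place in the gene, 126 coding summits lay in internal exons, 76 in the last, 16 in the first and 15 in genes of a single exon. Their position along the coding sequence had a median of 52.4% and their distance to the nearest splice site a median of 131 bp. In 3′ UTRs 133 of 139 summits lay in the last of several exons, a median of 909 bp before the transcript end. Of the 16 summits in 5′ UTRs, 9 lay in internal exons. A median near the middle of the coding sequence is also what evenly spread coding summits would give, so it marks no preferred place.

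The members lay in 372 host genes, of which 149 (40.1%, 35.2 to 45.1%) also had a promoter peak, against 27.9% of 21866 protein-coding genes. The share was 81 of 224 hosts (36.2%) for coding peaks, 7 of 15 for 5′ UTR peaks and 63 of 137 (46.0%) for 3′ UTR peaks. No gene had 3 or more member peaks, and 16 had 2. Of these 16, 7 had only CpG-rich summits, among them Cacna1a, a calcium channel subunit, and Irf2bpl, and 5 had only CpG-poor ones, among them Cdc27, an anaphase-promoting complex subunit, Grpel1, a mitochondrial protein import factor, and Inhbe. The genes with 2 peaks were named after their values were seen.

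Gene lists of liver function and stress were set beside the 1.7% of protein-coding genes that hosted an exonic peak. Over 20 lists, 23 of 417 matched genes did. In the integrated stress response list, with known CHOP or ATF4 targets, there were 3 of 23 genes: Cebpb, Gadd45a and Gdf15, a stress-induced hormone with a coding peak at a fold of 6.56 (4.08 to 10.1) on 19 reads. Among ER chaperones there were 0 of 22, and among ER degradation and translocation genes 1 of 21, the masked peak of Ssr1.

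Metabolic and secretory liver genes had 0 to 2 genes with an exonic peak in each list. Secreted plasma proteins had 1 of 42, Itih2, a hyaluronan-binding inhibitor heavy chain, with coding peaks of 8.25 and 6.0. Complement and coagulation genes had 0 of 26. Cytochrome P450 and drug metabolism genes had 1 of 28, Cyp7a1, the rate-limiting enzyme of bile acid synthesis, whose 3′ UTR peak had a fold of 15.0 (9.33 to 23) on 19 reads with no C/EBP-type element. Amino acid and urea metabolism had 1 of 28, Psat1. Lipid and glucose metabolism had 2 of 37, the insulin receptor substrates Irs2 with 7.12 in its coding exon and Irs1 with 6.75 in its 3′ UTR.

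Regulatory lists had 2 or 3 genes each. Hepatocyte transcription factors had 3 of 28, Cebpb and the pioneer factors Foxa1 with 6.52 and Foxa2 with 5.77, both at CpG-rich coding summits. The circadian clock had 2 of 20, Dbp, a leucine zipper output factor, with 10.2 (6.79 to 14.8) and Bhlhe41, a repressor, with 8.68, also at CpG-rich coding summits. Immediate early and AP-1 genes had 3 of 29. These were Ier2 with a 3′ UTR peak at 10.04 and a C/EBP element, Zfp36l2, an mRNA decay factor, with 8.68 and 4.86, and Jun with 5.30. Chromatin regulators had 3 of 33, among them Ep400, a remodelling ATPase, with 13.5, and Ncor1, a corepressor, with 4.50 on 5 reads.

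Translation genes had 2 of 30, Eif4g2 and the elongation factor Eef2, which had a fold of 4.76 and a second near-identical place. Neuronal and skeletal muscle lists had 0 of 20 each. Marker genes of liver cell types were at 0 of 6 for hepatocytes, 0 of 5 for Kupffer cells and 0 of 4 for stellate cells. Sinusoidal endothelium had 1 of 4, Stab2, a scavenger receptor, with 6.82 on 9 reads, and cholangiocytes 1 of 4, Krt7, a keratin, with 5.25 on 6 reads. Peaks in markers do not measure expression, and the cell type in which a peak arose cannot be read from a whole-liver library.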

How the data were processed

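The deposited list holds 1 CHOP immunoprecipitate of mouse liver. Per the labels' protocols, Bowtie placed single-end reads on mm10 with at most 2 mismatches, repeated reads at a position were dropped, alignments were filtered with SAMtools 1.9, and peaks were called with MACS2 2.1.2 on the pooled library. The deposited fold of each peak is the ratio of summit pileup to local background, with 1 added to each. With it the authors deposited −log10 p and −log10 q, and a score of 10 times −log10 q. These values are the authors' and served to describe, rank and filter peaks.

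Summit reads were solved from fold and −log10 p (largest residual 3.13e-05) and tested on simulated data. The Bowtie version and the total depth are not given in the sources used here, and reads carry no molecular identifiers. Peaks were placed on GENCODE M21, with the class order coding exon, 5′ UTR, 3′ UTR. Summits up to 1 kb from a protein-coding start count as promoter peaks. A second place has at least 90 matching bases in the window of 50 bp on each side of the summit (minimap2 2.31). Background positions were taken every 1000 bases of coding exon and 3′ UTR, 100 bases of 5′ UTR and 20 kb elsewhere. Intervals are 95% Wilson for shares and exact Poisson for folds and cover counting error only. Python 3.11.15, pandas 2.3.3, scipy 1.17.1, pysam 0.24.0 and samtools 1.23.1 were used.

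Named were the 20 members of highest fold, the 5 highest in 5′ UTRs and 8 in 3′ UTRs, up to 3 per gene list, up to 10 with a C/EBP-type element or CRE, and 3 on each side of the 1 kb limit. Names outside this rule are marked as chosen after their values were seen. The members and lists were chosen with earlier results of these data known. Of 420 listed genes 417 matched the annotation. Alternatives were other peak thresholds, start distances, start sets, exon sets and motif windows, and removal of masked or multi-place members. The input entered only through the peak caller. Some named members are not reported here.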

Additional observations from a re-analysis of the deposited data

How the results depend on the processing

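Of 70 values recomputed under 14 alternatives, 58 stayed within the interval of the reported value, or within 1.5 times a count, and 12 moved. With −log10 q of at least 5, 243 members were left, with a median fold of 7.64, 30.5% at a fold of 10 or more and 33.5% of hosts with a promoter peak. With a fold of at least 5, the median was 6.99, 25.1% reached 10 and 35.2% of hosts had a promoter peak. These filters act on fold and reads directly, and they removed promoter peaks as well. The shares of all peaks and of all protein-coding genes were not recomputed under them. The unfiltered shares given earlier are therefore not matched to these values. The share in coding exons was 65.1% with a start distance of 500 bp and 66.1% without masked summits. The C/EBP-type share was 6.70% within 25 bp and 15.7% within 100 bp, and the composite share was 3.09% within 25 bp; a wider window offers more bases for a match. The stricter CpG split, a ratio of 0.75 and a GC share of 55%, was chosen after seeing the data and left 134 CpG-rich members with 21 composites outside them, against 159 and 20. No paired analysis was possible because the only immunoprecipitate has no second library of its group. With 1 pooled library, variation between mice cannot be estimated, and the median of 10 summit reads limits each fold.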
